A study of Mus musculus with 6 samples.

Results

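The genes of sterol synthesis, of the sterol-sensing transcription factors SREBP and LXR, and of fatty acid synthesis and sterol transport were examined in bulk RNA sequencing of MCA205 tumors from mice given water or FF-10101. The 37 genes were chosen by their known roles, with earlier results of these data known, so shares set beside all genes are not a test. They were matched by Ensembl identifier to the 54309 identifiers of the table. All 37 were among the 13963 genes tested, whose mean over the 6 tumors was 10 normalized counts or more. They comprise 18 sterol synthesis enzymes, 5 genes of SREBP regulation, 4 of fatty acid synthesis, 4 of sterol transport and storage, and 6 of LXR and its targets. The lowest value of any of the 37 in any tumor was 34 reads.

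MCA205 is a mouse fibrosarcoma line of C57BL/6 origin, and FF-10101 is a covalent inhibitor of FLT3 that also blocks CSF1R, the receptor through which M-CSF sustains macrophages. Female C57BL/6J mice, 7 weeks old and with no labelled genetic change, carried 1000000 MCA205 cells placed under the skin of the right flank on day 0. The Control group (3 tumors) drank milliQ water, the vehicle, and the FF-10101 group (3 tumors) drank FF-10101 at 0.1 mg/mL from day 1. Whole tumors were taken on day 8, so the RNA is that of cancer cells and host cells together, and fewer cells of a type and less RNA per cell cannot be told apart. All tumors came from 1 cell line and 1 sex, and the drug was given to the whole animal. Values below are normalized counts, which are reads divided by a size factor per tumor, and a log2 fold change is the mean log2(normalized count + 1) of FF-10101–treated tumors minus that of control tumors.

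Cells make cholesterol from acetyl-CoA through the mevalonate pathway, then the isoprenoids, squalene, lanosterol and a series of later sterols. When sterols in the endoplasmic reticulum run low, SCAP carries SREBP to the Golgi, where proteases free the part that enters the nucleus and turns on synthesis genes. INSIG proteins hold SCAP back when sterols are plentiful. SREBP2 acts mainly on sterol genes and SREBP1 mainly on fatty acid genes, often together with the factor NF-Y. LXR, the oxysterol receptor, works in the other direction and turns on cholesterol efflux, and it is well known in macrophages loaded with cholesterol. Dividing cells need new sterol and fatty acid for their membranes.

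RefSeq promoters on GRCm38.p6 (250 bases before to 50 after the gene start) were matched for 29 of the 37 genes; *Sqle*, *Npc1*, *Abcg1*, *Scd2*, *Stard4*, *Fdft1*, *Scd1* and *Fdps* had no entry. Both strands were searched for 4 motifs, and hits were counted whether or not they overlapped another motif. These were the NF-Y box CCAAT, the sterol regulatory element core TCACNCCAC, the E-box CACGTG, and AGGTCA repeated in the same direction after 4 bases, the form of an LXR element. A gene was counted once if any of its promoters held the motif. The NF-Y box was present in 23 of the 29 genes, and in 14 of the 15 sterol synthesis genes with an entry, beside 41.1% of all 27025 genes with a promoter of this length (37.4% of the 32851 promoters). The sterol element core was found in 1 of the 29, *Hmgcs1*, and in 1.44% of all genes (1.24% of promoters). An E-box was present in 6 of the 29 and in 8.09% of all genes (7.15% of promoters), and the direct repeat in 0 of the 29 and in 0.0148% of all genes (0.0152% of promoters). A match describes the letters in this window and is not evidence of binding.

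The promoters of 5 sterol synthesis genes follow, 5′ to 3′ on the strand of the gene, with NF-Y boxes on either strand (CCAAT or its complement ATTGG) and the sterol element core in capitals. The first 3 were chosen for their many boxes. *Mvk* (chr5:114444019-114444318, plus strand) held 5. *Hmgcs1* (chr13:119690101-119690400, plus strand) held 4 boxes and the single core. *Nsdhl* (chrX:72918271-72918570, plus strand) held 4 boxes. *Tm7sf2* (chr19:6067801-6068100, minus strand), the gene with the largest difference between groups, held 1 box. *Acat2* (chr17:12960676-12960975, minus strand), also among the genes with the largest differences, held none.
Mvk: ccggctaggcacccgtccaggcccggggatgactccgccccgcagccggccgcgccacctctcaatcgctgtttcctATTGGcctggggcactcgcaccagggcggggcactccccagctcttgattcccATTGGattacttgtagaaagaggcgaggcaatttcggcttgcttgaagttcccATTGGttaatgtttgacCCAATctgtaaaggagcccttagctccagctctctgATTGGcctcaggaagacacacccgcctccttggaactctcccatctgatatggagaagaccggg
Hmgcs1: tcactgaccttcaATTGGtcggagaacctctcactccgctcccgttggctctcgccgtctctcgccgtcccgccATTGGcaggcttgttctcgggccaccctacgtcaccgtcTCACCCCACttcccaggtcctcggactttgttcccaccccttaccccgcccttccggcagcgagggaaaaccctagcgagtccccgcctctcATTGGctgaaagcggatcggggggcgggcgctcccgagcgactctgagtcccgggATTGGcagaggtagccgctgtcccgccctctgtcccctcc
Nsdhl: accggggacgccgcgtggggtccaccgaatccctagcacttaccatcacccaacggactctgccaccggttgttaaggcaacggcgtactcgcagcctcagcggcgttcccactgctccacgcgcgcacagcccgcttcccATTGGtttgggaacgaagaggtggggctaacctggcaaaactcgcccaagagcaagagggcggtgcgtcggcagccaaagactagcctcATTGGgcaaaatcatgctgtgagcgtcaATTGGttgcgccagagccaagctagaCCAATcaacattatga
Tm7sf2: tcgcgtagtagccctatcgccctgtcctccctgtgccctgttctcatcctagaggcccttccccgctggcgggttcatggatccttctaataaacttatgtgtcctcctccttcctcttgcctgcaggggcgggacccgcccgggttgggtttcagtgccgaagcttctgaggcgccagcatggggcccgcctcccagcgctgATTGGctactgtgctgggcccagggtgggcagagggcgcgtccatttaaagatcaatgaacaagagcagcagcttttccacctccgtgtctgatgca
Acat2: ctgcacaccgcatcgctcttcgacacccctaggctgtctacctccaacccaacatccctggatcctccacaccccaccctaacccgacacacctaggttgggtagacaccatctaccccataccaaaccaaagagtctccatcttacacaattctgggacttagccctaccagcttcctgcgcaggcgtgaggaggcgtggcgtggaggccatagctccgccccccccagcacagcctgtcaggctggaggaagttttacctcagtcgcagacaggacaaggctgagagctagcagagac

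The tumors did not fall into their labelled groups throughout. Recovered totals ran from 9143806 to 9643535 reads in the control group and from 9277019 to 13258258 in the FF-10101 group. On the first principal component of all genes tested (56.3% of the variance), control tumor 1 lay at −26.2, between FF-10101 tumors 1 (−10.8) and 2 (−39.3), whereas control tumors 2 and 3 lay at 56.5 and 68.6. Control tumor 1 was inside the range of the treated tumors for 40.9% of all genes tested. This share was not computed for control tumors 2 and 3, so it does not by itself set control tumor 1 apart. Ribosomal protein genes took 5.73% of the normalized counts of control tumor 1, beside 7.89% and 9.62% in the other controls and 4.93% to 5.55% in treated tumors. Mitochondrial genes took 2.21%, 1.93% and 1.5% in control tumors 1, 2 and 3 and 2.53%, 2.85% and 2.62% in FF-10101 tumors 1, 2 and 3, without overlap between groups, and the part of this in the results below was not tested. Fold changes are given with all 6 tumors and without control tumor 1. *Col1a1*, a collagen gene of mesenchymal cells such as those of this line and of host fibroblasts, was abundant in all 6 tumors, at 11065 to 57277.

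With all 6 tumors, 30 of the 37 genes were lower in FF-10101–treated tumors and 7 were higher, beside 48.1% of all genes tested that were lower. Their median log2 fold change was −0.52, beside 0.02 over all genes tested. None of the 37 passed an adjusted p of 0.05 in limma, with adjusted p values from 0.229 to 0.996, and none did with limma-voom on the recovered reads. Only 6 of the 13963 genes (0.0430%) passed it. At an unadjusted p of 0.05 in the same fit 7 of the 37 (18.9%) passed, beside 16.3% of all genes tested in either direction. All 7 were lower (*Tm7sf2*, *Srebf1*, *Mvk*, *Fdps*, *Nsdhl*, *Pmvk* and *Lpcat3*), a direction in which 7.49% of all genes passed. The groups did not overlap for 4 of the 37 (10.8%), all lower (*Tm7sf2*, *Srebf1*, *Scap* and *Lpcat3*), against 9.37% of all genes tested. None of the 37 was higher without overlap, against 10.9% of all genes. For a single gene, 3 tumors against 3 cannot give an exact two-sided permutation p below 0.1, and each of these 4 genes had that p.

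Without control tumor 1, the calls changed. That tumor was singled out because it lay with the treated tumors in these same data, so leaving it out favors a difference between groups. The adjusted p values without it, here and below, are therefore descriptive and are not a test of the treatment. The same limma fit on the remaining 5 tumors gave 22 of the 37 genes lower and 4 higher at an adjusted p of 0.05, against 9.88% and 12.0% of all genes tested. The median log2 fold change of the 37 was then −0.92, and that of all genes 0.036. Control tumors 2 and 3 lay above all treated tumors for 27 of the 37 (25.7% of all genes) and below them for 6 (28.4% of all genes). None of the 37 passed when any other single tumor was left out. Control tumor 1 lay below both other controls for 26 of the 37 (39.1% of all genes) and above both for 10 (44.6% of all genes).

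**Figure D1:**
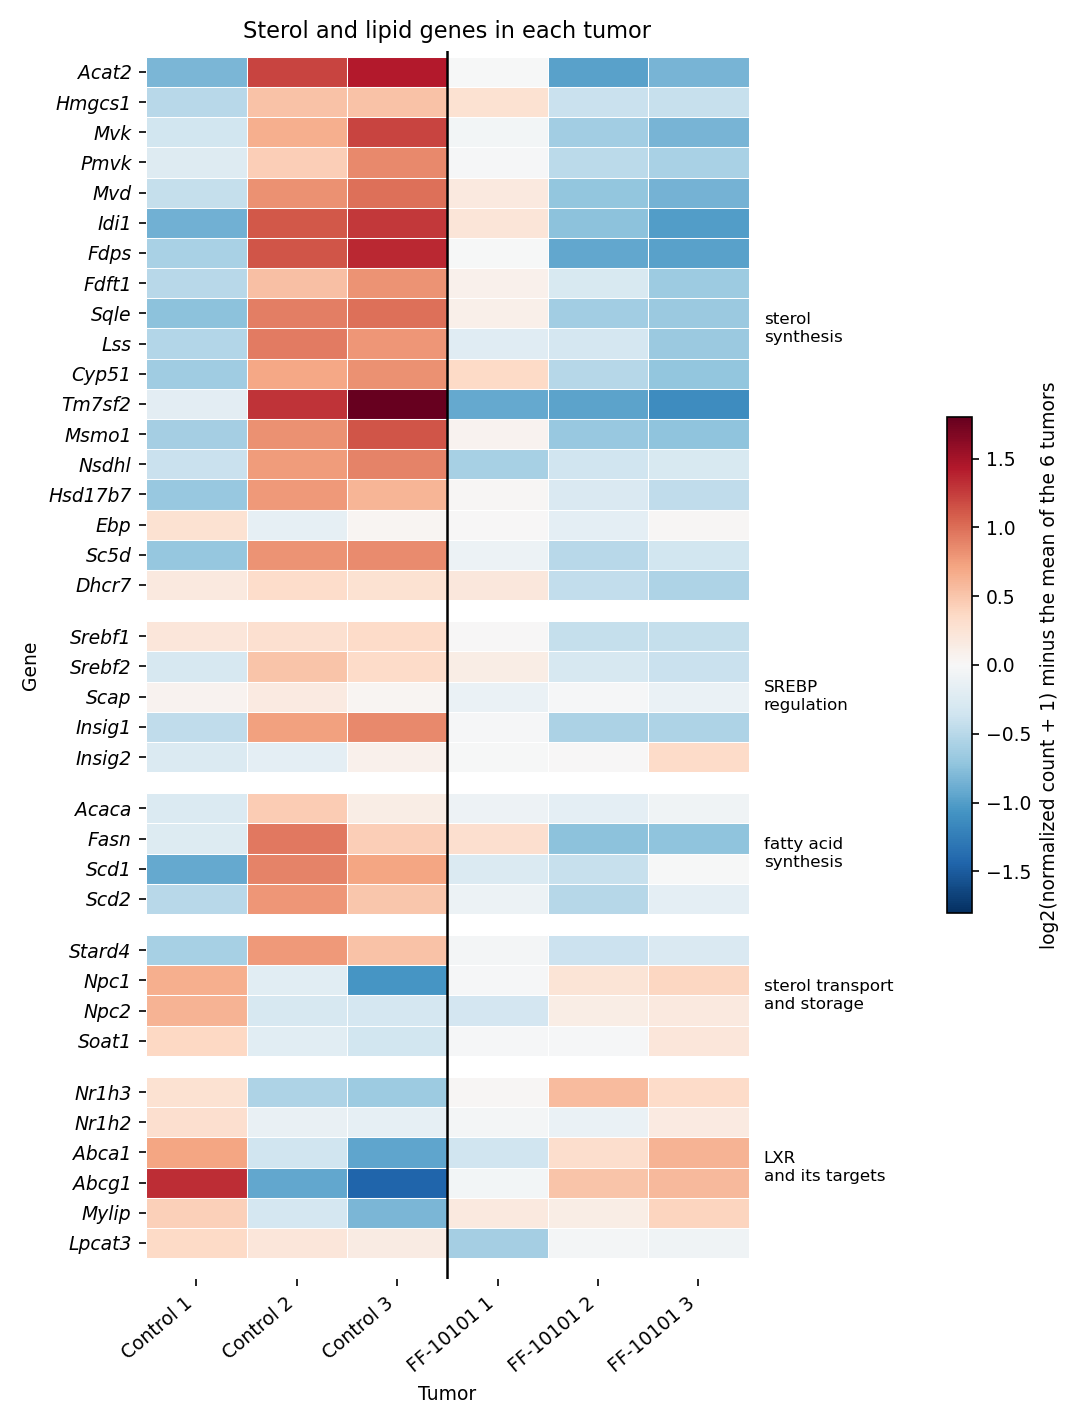
Each row is one of the 37 genes and each column a tumor, and color gives log2(normalized count + 1) minus the mean of that gene over the 6 tumors, in 5 functional groups. Control tumors 2 and 3 are red through most sterol and fatty acid synthesis genes, whereas control tumor 1 and FF-10101 tumors 2 and 3 are blue, and the pattern is the opposite for *Abca1*, *Abcg1* and *Nr1h3*.

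The 18 sterol synthesis genes were all lower in treated tumors, with a median log2 fold change of −0.79 and a range of −2.01 (*Tm7sf2*) to −0.10 (*Ebp*), and 5 of them (27.8%) had an unadjusted p under 0.05 in limma, beside 16.3% of all genes tested, or 7.49% counting lower genes alone. Summed over the 18 genes, normalized counts were 7160.3, 18090.4 and 20329 in control tumors 1, 2 and 3 and 11002, 6852 and 6476 in FF-10101 tumors 1, 2 and 3. Control tumors 2 and 3 stood well above the rest, and control tumor 1 lay between the treated tumors. It was below control tumors 2 and 3 in 17 of the 18 genes, the exception being *Ebp*. The median fold of control tumors 2 and 3 was 2.38 over the treated tumors and 2.62 over control tumor 1. Among treated tumors, FF-10101 tumor 1 was the highest for 16 of the 18. Without control tumor 1, 17 of the 18 were lower, with a median of −1.26, and 15 passed an adjusted p of 0.05, where 9.88% of all genes tested were lower and 12.0% higher. *Hmgcs1* (adjusted p = 0.0503 in limma), *Dhcr7* (0.129) and *Ebp* (0.956) did not pass.

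At the start of the pathway, *Acat2* (ENSMUSG00000023832) encodes the cytosolic thiolase that joins acetyl-CoA units. Its normalized counts were 269, 1112 and 1288 in control tumors 1, 2 and 3 and 474, 242 and 267 in FF-10101 tumors 1, 2 and 3. Control tumor 1 was within the treated range, and the other controls were above all treated tumors. The log2 fold change was −1.22 (SE 0.57, adjusted p = 0.336 in limma), and −1.93 (adjusted p = 0.00410) without control tumor 1. *Acat2* transcripts are 98.65% identical over 445 bases to *Tcp1*, a chaperonin subunit that was more abundant, with 3307, 4138 and 4347 in control and 3699.5, 2972 and 2954 in treated tumors (log2 fold change −0.29, adjusted p = 0.429 in limma, and −0.41, adjusted p = 0.0794, without control tumor 1). They are also 97.7% identical to *Acat3* over 1477 bases, a gene with a mean of 27.8 normalized counts here, so reads may be split among these genes. *Acat3* differed the other way, with 18.0, 7.61 and 15.5 in control and 55.0, 42.3 and 28.4 in treated tumors (log2 fold change 1.57, adjusted p = 0.229 in limma, and 1.8, adjusted p = 0.0289, without control tumor 1). *Hmgcs1*, the cytosolic HMG-CoA synthase, had 718, 1472 and 1465 in control and 1231, 769.7 and 763 in treated tumors. With all tumors it differed less than most of the pathway, by −0.37 (SE 0.32), or −0.71 without control tumor 1, and FF-10101 tumor 1 lay nearer to control tumors 2 and 3 than to the other treated tumors.

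The next enzymes carry mevalonate to isoprenoids. *Mvk*, *Pmvk* and *Mvd*, the mevalonate and phosphomevalonate kinases and the decarboxylase, differed by −1.01, −0.72 and −0.93 on the log2 scale, and by −1.43, −1.01 and −1.37 without control tumor 1. *Mvk* had 266, 531 and 784 in the controls and 328, 218 and 189 in treated tumors, and control tumor 1 again fell inside the treated range. *Idi1* (ENSMUSG00000058258), the isopentenyl diphosphate isomerase, had 436, 1720.2 and 1930.1 in the controls and 931, 474 and 397 in treated tumors. The range within the controls, 4.43 times from lowest to highest, was wider than the difference between group means, and its log2 fold change of −1.01 (SE 0.57, adjusted p = 0.406 in limma) moved to −1.70 (adjusted p = 0.0106) without control tumor 1.

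*Fdps* (ENSMUSG00000059743) encodes farnesyl diphosphate synthase, at the branch to sterols, prenylated proteins and ubiquinone. Per kilobase of transcript its level was the highest of the 18, at 2035 normalized counts in control and 764 in treated tumors on average. The counts were 1043, 3421 and 3974 in control tumors 1, 2 and 3 and 1556, 816 and 795 in FF-10101 tumors 1, 2 and 3, with means of 2813 ± 1557 and 1056 ± 433 (SD, n = 3 each). Control tumor 1 lay below FF-10101 tumor 1 and above the other treated tumors. Its log2 fold change was −1.27 (SE 0.50, adjusted p = 0.286 in limma), and −1.88 (adjusted p = 0.00466) without control tumor 1.

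From squalene to lanosterol, *Fdft1* (squalene synthase), *Sqle* (squalene epoxidase) and *Lss* (lanosterol synthase) had log2 fold changes of −0.56, −0.78 and −0.81. Without control tumor 1 they were −0.95, −1.35 and −1.27, with adjusted p values of 0.0208, 0.00778 and 0.00462 in limma. *Sqle*, a rate-controlling step of the pathway, had 558, 1758 and 1851 normalized counts in the controls and 1004, 603 and 587 in treated tumors, and control tumor 1 was the lowest of all 6. *Fdft1* shares 774 exon bases in GENCODE vM21 with *Ctsb* on the other strand, an abundant gene with mean normalized counts of 19167 in control and 19029.8 in treated tumors. Whether strand was used in counting is not given in the sources used here, so reads of the pair may not be separable; *Ctsb* had a log2 fold change of 0.078, and 0.47 without control tumor 1.

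*Tm7sf2* (ENSMUSG00000024799), a sterol C14 reductase acting after lanosterol demethylation, had the largest difference of the 37. Its normalized counts were 64.2, 183 and 276 in control tumors 1, 2 and 3 and 38.2, 36.9 and 32.9 in FF-10101 tumors 1, 2 and 3, from 34 to 249 reads. The treated tumors were close to one another, the controls were spread over a 4.30-fold range, and the groups did not overlap. The log2 fold change was −2.01 (SE 0.49, 95% interval −3.16 to −0.87, adjusted p = 0.229 in limma), and −2.61 (adjusted p = 0.00108) without control tumor 1. It shares 532 exon bases, 12.1% of its own, with *Vps51* on the same strand. *Vps51* had 608, 362 and 484 in the controls and 412, 416 and 364 in treated tumors, a log2 fold change of −0.26 (adjusted p = 0.563 in limma), and −0.077 (adjusted p = 0.778) without control tumor 1. How reads were divided between them was not tested.

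Of the later enzymes, *Cyp51* (lanosterol demethylase), *Msmo1*, *Nsdhl* and *Hsd17b7* (which remove the C4 methyl groups) and *Sc5d* (a desaturase) had log2 fold changes of −0.58, −0.89, −0.83, −0.48 and −0.64. All 5 passed an adjusted p of 0.05 without control tumor 1, at −1.04, −1.42, −1.24, −0.94 and −1.15. *Nsdhl* had 172, 388 and 425 normalized counts in the controls and 150.5, 178 and 187 in treated tumors. It was the only sterol synthesis gene of the list in which FF-10101 tumor 1 was the lowest treated tumor. *Dhcr7*, which carries out a final reduction, had 307, 343 and 328 in the controls, close to one another, and 315, 201 and 186 in treated tumors. There FF-10101 tumor 1 was level with the controls and the other treated tumors were lower, and the log2 fold change hardly moved, from −0.52 (SE 0.23) to −0.56 without control tumor 1.

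*Ebp* (ENSMUSG00000031168), the sterol isomerase, stood apart from its pathway. Its normalized counts were 574, 422 and 485 in control tumors 1, 2 and 3 and 474, 418 and 480 in FF-10101 tumors 1, 2 and 3. The groups overlapped, and control tumor 1 was the highest of all 6. This gave a log2 fold change of −0.10 (SE 0.17, 95% interval −0.49 to 0.29, adjusted p = 0.788 in limma), and 0.014 without control tumor 1.

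**Figure D2:**
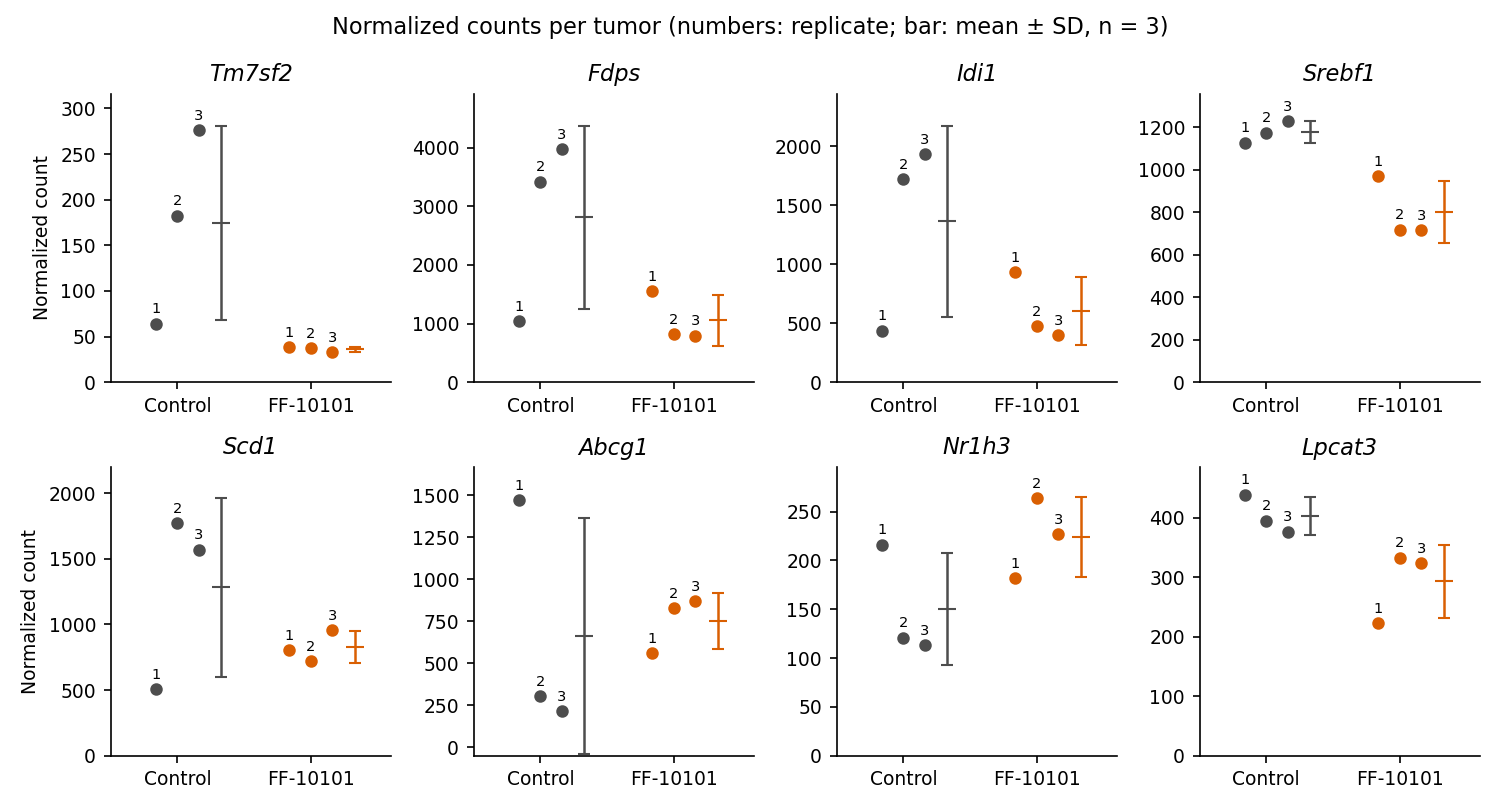
Normalized counts of 8 genes in each tumor on linear axes (points, numbered by replicate), with the mean ± SD of 3 tumors beside each group; the *Abcg1* axis runs below 0 because the SD of the controls exceeds their mean. Control tumor 1 leaves the other controls in *Tm7sf2*, *Fdps*, *Idi1*, *Scd1*, *Abcg1* and *Nr1h3*, while *Srebf1* and *Lpcat3* have tight controls above all treated tumors.

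Among the genes of SREBP regulation, 4 of 5 were lower in treated tumors, with a median log2 fold change of −0.38. *Srebf1* (ENSMUSG00000020538), which encodes SREBP1, had 1127, 1175 and 1229 normalized counts in control tumors 1, 2 and 3 and 969.9, 718 and 716 in FF-10101 tumors 1, 2 and 3. The groups did not overlap, and control tumor 1 lay with the other controls. Means were 1177 ± 51.2 and 801 ± 146 (SD, n = 3 each), and the log2 fold change was −0.57 (SE 0.16, 95% interval −0.95 to −0.19, adjusted p = 0.229 in limma). Without control tumor 1 it was −0.60 (adjusted p = 0.0390), so its size rested less on that tumor than that of most members. *Srebf1* shares 109 exon bases with *Rai1* on the other strand, 1.94% of its own.

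*Srebf2*, which encodes SREBP2, had 1989, 3495 and 3109 in the controls and 2679, 1991 and 1848 in treated tumors. Here control tumor 1 was at the level of FF-10101 tumor 2, as in the sterol synthesis genes. On the log2 scale the difference was −0.38 (SE 0.25, adjusted p = 0.468 in limma), and −0.62 (adjusted p = 0.0419) without that tumor. Per kilobase of transcript, *Srebf1* made up 40.1% of the *Srebf1* and *Srebf2* levels in control tumor 1 and 28.4% to 31.8% in the other 5 tumors.

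*Scap*, the SREBP escort, had 536, 578 and 528 in the controls and 474, 507 and 473 in treated tumors. The groups did not overlap, but the difference was the smallest of this group, at −0.17 (SE 0.14, adjusted p = 0.549 in limma), and −0.19 (adjusted p = 0.351) without control tumor 1. *Insig1* (ENSMUSG00000045294), a retention factor whose gene is itself a target of SREBP, had 449, 1036 and 1128 in control tumors 1, 2 and 3 and 610.2, 416 and 420.4 in FF-10101 tumors 1, 2 and 3. Its pattern over the tumors was that of the sterol synthesis genes, with a log2 fold change of −0.76 (SE 0.35, adjusted p = 0.328 in limma) and −1.19 (adjusted p = 0.00629) without control tumor 1. *Insig2*, the related retention factor, was the only one of the 5 with higher values in treated tumors, at 260, 277 and 334 in the controls and 311, 313 and 395 in treated tumors (log2 fold change 0.22, SE 0.18, and 0.15 without control tumor 1). Per kilobase, *Insig1* was 63.3% of the *Insig1* and *Insig2* levels in control tumor 1 and 78.9% and 77.2% in control tumors 2 and 3. In FF-10101 tumors 1, 2 and 3 it was 66.3%, 57.1% and 51.6%, a range that held control tumor 1 but neither of the other controls.

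All 4 fatty acid synthesis genes were lower in treated tumors, with a median log2 fold change of −0.49 (−0.97 without control tumor 1), and none had an unadjusted p under 0.05 with all tumors. *Fasn* (ENSMUSG00000025153), fatty acid synthase, had 807, 1857 and 1311 normalized counts in control tumors 1, 2 and 3 and 1188, 575 and 582 in FF-10101 tumors 1, 2 and 3. Control tumor 1 and FF-10101 tumor 1 lay between the other controls and the other treated tumors. The difference on the log2 scale was −0.77 (SE 0.37, adjusted p = 0.346 in limma), and −1.08 (adjusted p = 0.0454) without control tumor 1. *Acaca*, acetyl-CoA carboxylase, differed least, with 253, 419 and 335 in the controls and 286, 269 and 289 in treated tumors. Its log2 fold change was −0.23 (SE 0.21), and −0.41 (adjusted p = 0.108 in limma) without control tumor 1, which did not pass.

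The stearoyl-CoA desaturases *Scd1* and *Scd2*, which make monounsaturated fatty acids, also had control tumors 2 and 3 highest. *Scd1* had 504, 1774 and 1569.6 in the controls and 802, 719 and 957 in treated tumors, and control tumor 1 was below every other tumor. *Scd2* had 3128, 7709 and 6258 in the controls and 4119, 3097 and 3911 in treated tumors. Their log2 fold changes were −0.45 and −0.53 with all tumors and −1.02 and −0.92 without control tumor 1 (adjusted p = 0.00539 and 0.00993 in limma). Per kilobase *Scd2* was the higher of the pair in every tumor, and *Scd1* made up 15.4% to 22.1% of both together, lowest in control tumor 1.

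**Figure D3:**
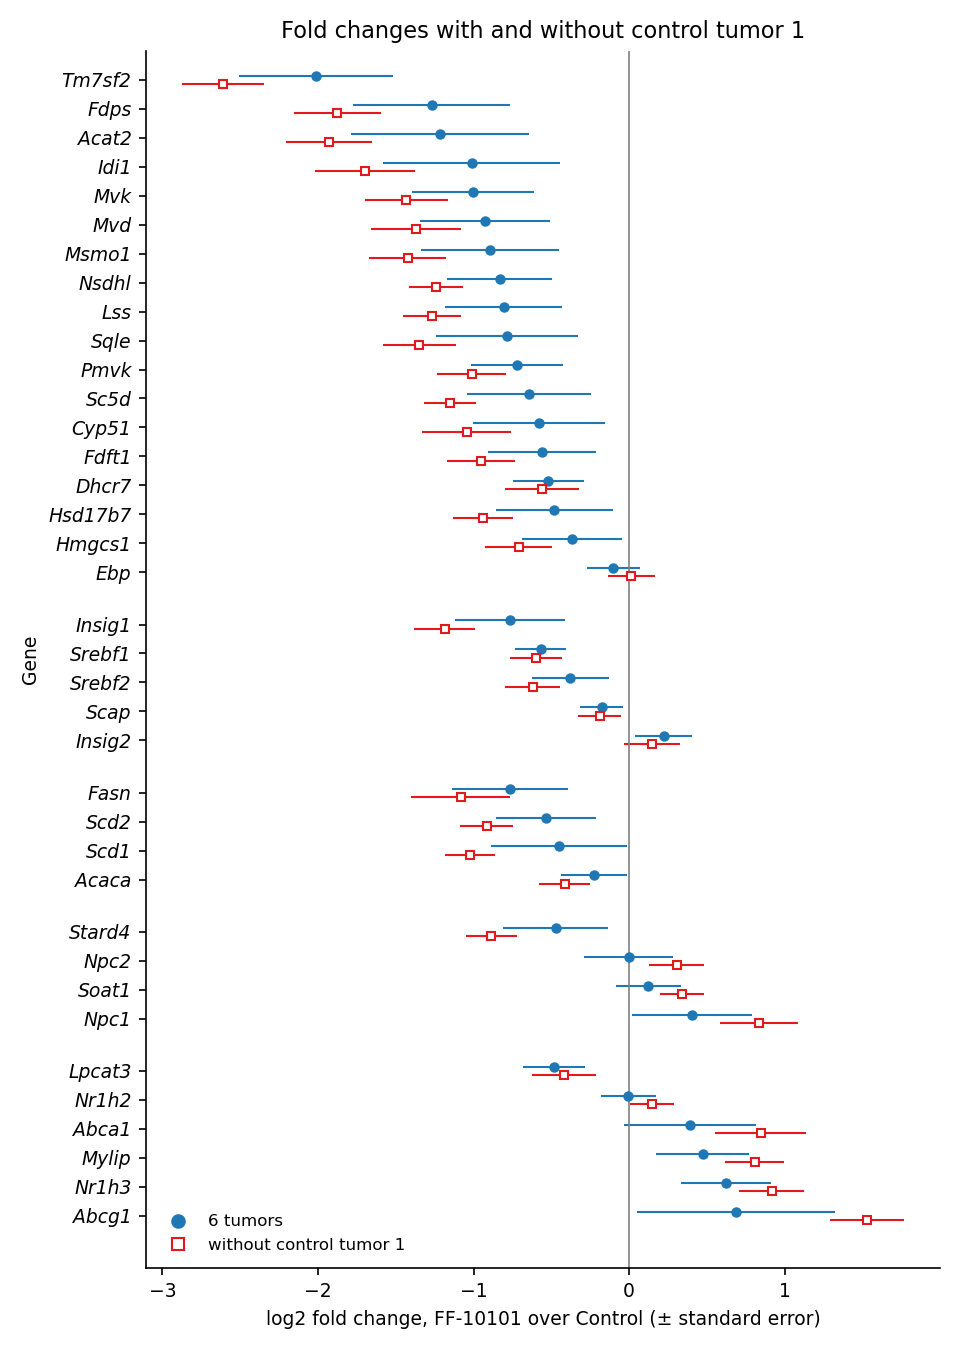
Log2 fold change (FF-10101 over Control, ± standard error from limma) of the 37 genes by functional group, with all 6 tumors (filled circles) and without control tumor 1 (open squares). Leaving that tumor out moves sterol (except *Ebp*) and fatty acid synthesis genes to the left, *Tm7sf2* from −2.01 to −2.61, and most LXR genes to the right, *Abcg1* from 0.69 to 1.53, while *Srebf1*, *Scap*, *Dhcr7* and *Lpcat3* stay near their values.

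The genes of sterol transport and storage did not move as a group, with a median log2 fold change of 0.059. *Stard4* (ENSMUSG00000024378), a cytosolic sterol carrier and known SREBP target, had 317, 825 and 691 normalized counts in control tumors 1, 2 and 3 and 467, 367 and 396 in FF-10101 tumors 1, 2 and 3. It followed the sterol synthesis genes, at −0.47 (SE 0.34, adjusted p = 0.510 in limma) and −0.89 (adjusted p = 0.00999) without control tumor 1. *Npc1*, which exports cholesterol from lysosomes, had 929, 507 and 282 in the controls and 577, 699 and 764 in treated tumors. Control tumor 1 was the highest of all 6 and the other controls the lowest, and the log2 fold change of 0.40 (SE 0.39) became 0.84 (adjusted p = 0.0483 in limma) without control tumor 1 and −0.023 without control tumor 3. *Npc1* shares 511 exon bases with *Rmc1* on the other strand (mean of 221 normalized counts), so reads of this pair too may not be separable. *Npc2*, its soluble partner, had the highest level per kilobase of the 37 genes, 2555 in control and 2457 in treated tumors.

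*Npc2* had 12330.5, 6497 and 6462 in the controls and 6402, 8818 and 9096 in treated tumors. Its log2 fold change of −0.0039 (95% interval −0.67 to 0.66) was 0.31 without control tumor 1 and took the other sign under 3 other scalings. *Soat1*, which esterifies cholesterol for storage, had a log2 fold change of 0.12 (95% interval −0.36 to 0.60), and 0.34 without control tumor 1. For both genes the groups overlapped and control tumor 1 was the highest tumor.

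In the LXR group, 4 of 6 genes were higher in treated tumors, and none had higher values without overlap. The median log2 fold change of the 6 was 0.43, or 0.83 without control tumor 1 and 0.079 without control tumor 3. *Nr1h3* (ENSMUSG00000002108), which encodes LXRα, the form found in macrophages and liver, had 216, 121 and 113 normalized counts in control tumors 1, 2 and 3 and 182, 264 and 227 in FF-10101 tumors 1, 2 and 3. Control tumor 1 lay inside the treated range, and the other controls lay below it. The log2 fold change was 0.62 (SE 0.29, adjusted p = 0.331 in limma), and 0.92 (adjusted p = 0.0198) without control tumor 1. *Nr1h2*, which encodes the widely expressed LXRβ, differed least, with 922, 678 and 668 in the controls and 727, 684 and 831 in treated tumors. Its log2 fold change of −0.0048 was 0.15 without control tumor 1, had a 95% interval of −0.41 to 0.40 and took the other sign under 3 other scalings. Per kilobase, *Nr1h3* was 14.8% to 19.3% of the *Nr1h3* and *Nr1h2* levels in the controls and 20.4% to 28.3% in treated tumors.

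*Abca1* and *Abcg1*, the pumps that export cholesterol to lipoproteins, and *Mylip*, a ubiquitin ligase for lipoprotein receptors, are established LXR targets. *Abcg1* (ENSMUSG00000024030) had 1469, 304 and 214 in control tumors 1, 2 and 3 and 559.8, 827 and 869 in FF-10101 tumors 1, 2 and 3. The controls spanned 6.86-fold, the widest of the 37 genes, with control tumor 1 above and the other controls below all treated tumors. Its log2 fold change was 0.69 (SE 0.64, adjusted p = 0.608 in limma) with all tumors and 1.53 (adjusted p = 0.00534) without control tumor 1.

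*Abca1* had 1769.5, 845 and 559 in the controls and 839, 1351 and 1669 in treated tumors, and *Mylip* had 577, 342 and 241 and 481, 469 and 564. In both, control tumor 1 was again above all treated tumors. Without it their log2 fold changes went from 0.39 to 0.85 (adjusted p = 0.0751 in limma) and from 0.47 to 0.81 (adjusted p = 0.0225), so *Mylip* passed and *Abca1* did not. With control tumor 3 left out instead, the log2 fold changes of *Abca1* and *Mylip* were 0.016 and 0.18.

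*Lpcat3* (ENSMUSG00000004270), which builds polyunsaturated phospholipids and is also a known LXR target, differed the other way from the pumps. It had 439, 396 and 377 in control tumors 1, 2 and 3 and 223, 333 and 324 in FF-10101 tumors 1, 2 and 3. All controls were above all treated tumors. The log2 fold change was −0.48 (SE 0.20, 95% interval −0.94 to −0.019, adjusted p = 0.296 in limma) and −0.42 (adjusted p = 0.177) without control tumor 1. It shares 334 exon bases, 10.2% of its own, with *Emg1* on the other strand, which was also lower in treated tumors, with 745, 1179 and 1399.9 in the controls and 850, 684 and 528 in treated tumors (log2 fold change −0.67, adjusted p = 0.292 in limma). Without control tumor 1, *Emg1* passed, at −0.93 (adjusted p = 0.0182), whereas *Lpcat3* did not. The part of *Emg1* reads in the *Lpcat3* difference was not tested.

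Beyond the 37 genes, 53 other genes of these pathways were taken from a written list, and 52 of them were tested. The median log2 fold change of the 52 was −0.095, with 29 lower and 23 higher, and none passed an adjusted p of 0.05 in limma with all 6 tumors. At an unadjusted p of 0.05, 6 of the 52 (11.5%) passed, beside 16.3% of all genes tested. Without control tumor 1 their median was −0.016, and 10 (19.2%) were lower and 3 (5.77%) higher at an adjusted p of 0.05, beside 9.88% and 12.0% of all genes tested. The 7 other sterol synthesis genes had a median of −0.37, the 21 other SREBP regulators and targets −0.12, the 12 tested LXR partners and targets 0.0070, and the 12 genes of oxysterol and ester handling 0.016. They were −0.54, −0.16, 0.24 and 0.12 without control tumor 1. With all tumors, these medians were nearer that of all genes tested than the medians of the sterol and fatty acid synthesis genes above.

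The groups did not overlap for 9 of the 52, 4 lower (7.69%) and 5 higher (9.62%), shares close to the 9.37% and 10.9% of all genes tested. They are named as the planned rule asks, not as an excess over the background. *Cyp7b1*, the oxysterol 7α-hydroxylase, had the largest difference, with 272, 46.7 and 56.6 normalized counts in the controls and 413, 457 and 397 in treated tumors. Its log2 fold change was 2.22 (SE 0.59, adjusted p = 0.229 in limma), and 3.01 (adjusted p = 0.000170) without control tumor 1. Control tumor 1 lay nearer the treated tumors than the other controls did. *Fads1*, the Δ5 fatty acid desaturase, had 1200, 1718 and 1449.8 in the controls and 898, 769.7 and 725 in treated tumors, a log2 fold change of −0.86 (SE 0.18, adjusted p = 0.229 in limma), and −0.99 (adjusted p = 0.00512) without control tumor 1. *Lbr*, which encodes the nuclear envelope protein that has the same sterol C14 reductase activity as TM7SF2, had 747, 858 and 861 and 649.9, 558 and 569, a log2 fold change of −0.47 (SE 0.15, adjusted p = 0.233 in limma), and −0.54 (adjusted p = 0.0289) without control tumor 1.

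Also without overlap were *Arl4c* (−0.44), a known LXR target, and *Rxrb* (−0.24), an LXR partner, both lower. Higher were *Mbtps1* (0.39), the first protease that cuts SREBP, *Osbp* (0.33), an oxysterol-binding protein, and *Gpam* (0.23), which starts glycerolipid synthesis. The adjusted p values of these 5 genes ran from 0.234 to 0.541 in limma. None of the 5 passed without control tumor 1, at −0.38, −0.29, 0.37, 0.46 and 0.23 in the order named (adjusted p = 0.0639 to 0.395).

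Lists of cell type markers were summed in each tumor beside these results, with no test. The 8 proliferation markers had 5880.4, 10073 and 10362 normalized counts in control tumors 1, 2 and 3 and 7529, 4789 and 4921 in FF-10101 tumors 1, 2 and 3. All 8 were lower in treated tumors with and without control tumor 1 (median log2 fold change −0.75 and −0.96). Their sums ranked the tumors as the sterol synthesis sum did, except that FF-10101 tumors 2 and 3 changed places as the lowest. The part of proliferating cells in the sterol synthesis result was not tested.

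The 8 T cell markers had sums of 2438, 935 and 789.8 in the controls and 1078, 2155 and 2289.7 in treated tumors, with all 8 higher with and without control tumor 1 (median log2 fold change 0.47 and 0.92). This is the same order of tumors as for the LXR group, whose sums were 5393, 2686 and 2172 in the controls and 3012, 3928 and 4484 in treated tumors. For the 12 macrophage markers, of which 11 were lower with all tumors (median −0.68) and 7 without control tumor 1 (median −0.44), the sums were 113607, 74557 and 90671 in the controls and 38932, 60179 and 59939.7 in treated tumors. For T cell, LXR and macrophage genes alike, control tumor 1 had the highest sum. The macrophage sums did not overlap between groups and placed the lowest tumor at FF-10101 tumor 1, unlike the sterol synthesis sums. The parts of T cells and macrophages in the LXR result were not tested.

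The 7 neutrophil markers had sums of 1229, 743 and 558 in the controls and 1511, 1826 and 2255 in treated tumors, which did not overlap, and all 6 that were tested were higher with and without control tumor 1 (median log2 fold change 1.77 and 2.35). Of the fibroblast-like markers 5 of 6 were higher (median 0.58, and 0.94 without control tumor 1), with sums of 143834, 77802 and 62952 in the controls and 154092, 103708 and 90253 in treated tumors. Of the skeletal muscle markers 6 of 8 were higher (median 0.46, and 0.66 without control tumor 1), with sums of 7119, 3361 and 4949 and 3279, 12245 and 7252. In these last lists the groups overlapped. The part of these cells in the results was not tested.

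Endothelial markers (5 genes, all higher in treated tumors, median log2 fold change 1.19, and 1.68 without control tumor 1) summed to 4315, 1733 and 1235 in the controls and 4294, 4767 and 5034 in treated tumors, with control tumor 1 again at the level of treated tumors. Markers of lipid-making tissue that can lie next to a tumor were also summed, in the RNA of the same tumors. The 7 sebocyte markers were near 0, with sums of 11.3 to 55.5 in the controls and 15.1 to 22.9 in treated tumors, and none of them reached the mean needed for testing. The 8 adipocyte markers summed to 995, 449 and 898 and 539, 1027 and 1836, and *Lep*, one of them, had no read in 3 of the 6 tumors. The 7 keratinocyte markers reached 971 in FF-10101 tumor 1, the treated tumor with the highest sterol synthesis sum, beside 29.3 and 20.4 in FF-10101 tumors 2 and 3 and 31.5 to 186 in the controls. The part of skin in the values of FF-10101 tumor 1 was not tested.

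**Figure D4:**
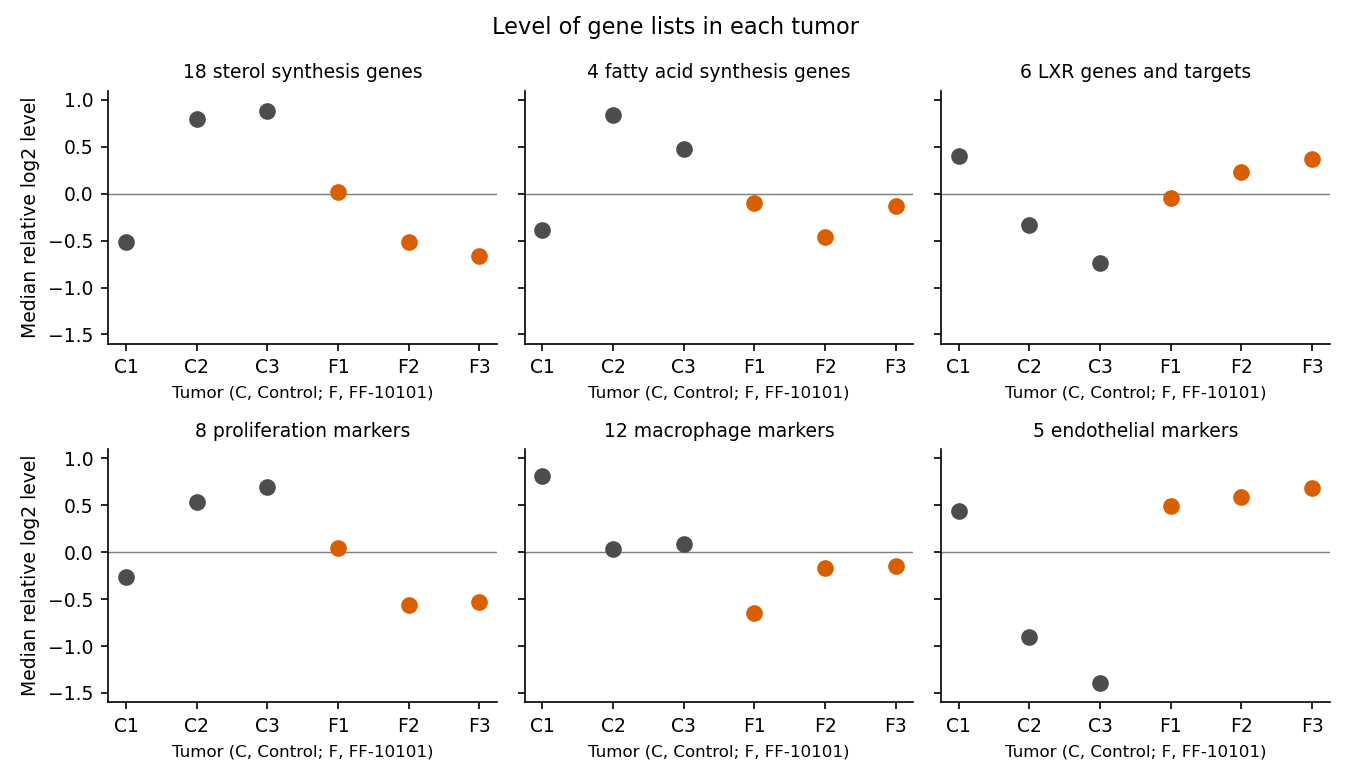
For each of 6 lists, the median over its genes of log2(normalized count + 1) relative to the mean of each gene over the 6 tumors, 1 point per tumor (gray, Control; orange, FF-10101). Sterol synthesis and proliferation share the order in which control tumors 2 and 3 are highest and control tumor 1 falls with the treated tumors, LXR genes and endothelial markers run the other way, and macrophage markers are highest in control tumor 1.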

How the data were processed

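Bulk RNA was sequenced from 6 MCA205 tumors, 3 Control and 3 FF-10101, grouped by the sample labels. The authors processed reads with fastp 0.19.5, quantified them with Salmon 1.5.1 on GENCODE vM27 (GRCm39), and used DESeq2 1.22.1, per the methods and the submitters' processing notes. In the deposited table, each of 54309 identifiers has a log2 value in each tumor. The transformation is not named in the sources used here. Normalized counts had been planned for, so the values were inverted on the form of the authors' DESeq2 variance-stabilizing transformation, which gave whole reads for 100% of 325854 values (tolerance 1e-06). Salmon assigns reads shared by several transcripts by estimation, so near-identical and overlapping genes are uncertain.

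Genes with a mean normalized count of at least 10 were compared with limma 3.58.1 (R 4.3.3) on log2(normalized count + 1), using lmFit and eBayes with a trend, the group as the sole term and Benjamini-Hochberg adjustment over 13963 genes. This scale understates changes of low genes. Symbols came from GENCODE vM21, as did transcript lengths (longest coding transcript), shared exons and, with BLAST 2.17.0, copies; as its build, GRCm38, differs from that of the authors, the only coordinates given are those of RefSeq promoters.

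The 37 genes, the lists and the tests were chosen with earlier results of these data known, so no list was tested. Full values were planned for genes past an adjusted p of 0.05, genes whose groups do not overlap, and the largest and smallest absolute change of each functional group; of the other pathway genes, those without overlap were named, except 1 that is not reported here. The remaining values per tumor were chosen after they were seen. No value of the 37 genes was 0, and a count of 0 would allow 3 reads (2.29 to 3.38 normalized counts by tumor), counting error only. Alternatives were array weights, a fit with no trend, quantile normalization, 75th percentile scaling, pseudocounts of 0.5 and 10, no minimum count, a minimum mean of 50, the deposited values as they stand, limma-voom on recovered reads, the replicate number as a block, and each tumor left out in turn. Strand use in counting is not given in the sources used here.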

Additional observations from a re-analysis of the deposited data

How the results depend on the processing

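Weighting the tumors and leaving out control tumor 1 moved the counts of genes called most. For the LXR group, leaving out control tumor 3 moved the median log2 fold change more (from 0.43 to 0.079) than weighting did (to 0.60). Leaving out each tumor in turn gave 1 to 3051 genes past an adjusted p of 0.05 over all genes tested (6 with all tumors) and 0 to 26 of the 37 genes, with 2 to 31 at an unadjusted p of 0.05; the highest value of each was without control tumor 1. The median log2 fold change then ranged from −1.26 to −0.53 for sterol synthesis, −0.60 to −0.21 for SREBP regulation, −0.97 to −0.19 for fatty acid synthesis, −0.092 to 0.32 for sterol transport and storage, and 0.079 to 0.83 for LXR and its targets. Single genes took the other sign within ranges of −0.21 to 0.014 (*Ebp*), −0.023 to 0.84 (*Npc1*), −0.16 to 0.31 (*Npc2*), −0.022 to 0.34 (*Soat1*) and −0.086 to 0.15 (*Nr1h2*). Array weights moved the counts further. They weighted FF-10101 tumor 2 by 8.08 and control tumor 2 by 5.39, the other tumors by 0.139 (control tumor 1) to 0.859, so that the fit rests largely on 1 tumor per group, and called 8365 genes in all, 33 of the 37 and 34 at an unadjusted p, with medians of −0.70 for SREBP regulation and −1.21 for fatty acid synthesis. No minimum count gave 17 genes in all and 14 of the 37 at an unadjusted p, a mean of at least 50 gave 3 genes in all, and no trend gave 2 of the 37 at an unadjusted p. *Npc2* was 0.014, 0.40, 0.025 and 0.10 and *Nr1h2* 0.013, 0.033, 0.020 and 0.0091 with scaling to the 75th percentile, array weights, limma-voom and quantile normalization. The causes of these changes were not tested. With the replicate number as a block, 1 gene passed in all and 3 of the 37 at an unadjusted p. The deviations of same-numbered tumors from their group means had correlations of −0.29, −0.040 and −0.28. With 3 tumors per group these cannot decide whether the numbers pair the tumors, and no source used here says that they do. No other alternative changed the sign of a member or its side of an adjusted p of 0.05. With 3 tumors per group, a difference of the size of the spread among the controls cannot be resolved.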
